A study of Mus musculus with 6 samples.

Results

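The endoplasmic reticulum (ER) chaperones and the unfolded protein response were followed here through 39 genes in mouse Th17 cells, chosen by name for their known function and all found among the 16244 genes measured. The study asked how a single amino acid change in RORγt, the transcription factor that defines Th17 cells, alters these cells when they are cultured under inflammatory conditions. RNA-seq was done on 3 wild-type (WT) libraries and 3 RORγt N275D libraries. In both genotypes, naive CD4+ T cells from spleens of C57BL/6 mice had been activated through CD3 and CD28 and cultured for 3 days under pathogenic Th17 conditions. The study's results name IL-6, IL-1β and IL-23 for these cultures, while its methods add IL-23 and IL-1β to a mixture of TGF-β, IL-6 and antibodies that block IL-4 and IFN-γ, so whether TGF-β was present is not settled by the sources used here. The N275D cells carried an asparagine to aspartate change knocked in by CRISPR-Cas9. The general methods name young adult mice of both sexes, while the zygosity of the donors, and whether the libraries of a genotype were separate animals or separate cultures, are not given for these libraries in the sources used here. The p-values therefore measure the spread between these libraries, which may be technical. The WT mice were bought and the knockin line came from another laboratory, so genotype and mouse source cannot be told apart.

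The ER folds and modifies proteins that a cell secretes or displays, among them the cytokines of an effector T cell. When unfolded protein accumulates, 3 membrane sensors respond: IRE1, which splices *Xbp1* mRNA into the form that encodes an active transcription factor, PERK, which slows translation while favouring ATF4, and ATF6, which is cleaved to release a transcription factor. Their targets are the luminal chaperones, the disulfide isomerases and the machinery of ER-associated degradation (ERAD), which pulls misfolded proteins back to the cytosol for destruction. Gene totals such as these do not separate spliced from unspliced *Xbp1* mRNA, nor cleaved from intact ATF6. They also do not measure the activity of PERK or the translation of ATF4.

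Many of these genes carry in their promoters the sequence through which the response is known to act, and the stretches that hold it are shown because the members that carry it can be set beside those that do not. The ER stress response element (ERSE) was searched as CCAAT, any 9 bases, then CCACG, the first part being the site of the CCAAT-binding factor NF-Y and the second that of ATF6 or XBP1. A shorter relative, ERSE-II, was searched as ATTGG, any base, then CCACG. Both strands were read in RefSeq windows from 250 bases before to 50 bases after each transcript start on GRCm38.p6, the build mm10. Capitals mark the element, and each sequence runs 5′ to 3′ in the direction of the gene, so that an element on the opposite strand begins with CGTGG.
Derl3, chr10:75893237-75893265, plus strand: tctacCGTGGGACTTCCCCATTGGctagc
Ero1b, chr13:12565677-12565705, plus strand: ggcctCGTGGTCCCGCCTCATTGGccgcc
Hsp90b1 distal, chr10:86705633-86705661, minus strand: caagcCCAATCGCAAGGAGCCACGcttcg
Hsp90b1 proximal, chr10:86705528-86705556, minus strand: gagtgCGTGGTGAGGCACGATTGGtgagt
Hspa5, chr2:34772020-34772048, plus strand: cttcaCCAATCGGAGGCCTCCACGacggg
Pdia6, chr12:17266486-17266514, plus strand: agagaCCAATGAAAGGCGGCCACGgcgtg
Creld2, chr15:88819515-88819543, plus strand: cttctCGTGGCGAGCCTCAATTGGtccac
Herpud1 (ERSE-II), chr8:94386372-94386392, plus strand: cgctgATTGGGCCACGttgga
Syvn1, chr19:6046527-6046555, plus strand: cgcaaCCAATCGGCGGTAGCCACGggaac
Dnajc3, chr14:118937822-118937850, plus strand: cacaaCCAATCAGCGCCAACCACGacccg
Calr, chr8:84847070-84847098, minus strand: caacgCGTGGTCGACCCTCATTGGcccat
Canx, chr11:50325795-50325823, minus strand: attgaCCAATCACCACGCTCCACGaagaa

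The stretches are listed from the member with the largest log2 fold change to that with the lowest. All lie upstream of the RefSeq start, although the *Hspa5* stretch falls within an exon of a longer *Hspa5* transcript in GENCODE M21. Of the 39 members, 32 had a promoter window, and 10 of the 32 held an ERSE, compared with 37 of 27025 mouse genes with a window (0.137%) and 18 of 9582 such genes among those tested (0.188%). The members without a window were *Atf6*, *Hspa13*, *Hyou1*, *Manf*, *Derl1*, *Sec61a1* and *Ssr2*. None of 96 other ER genes with a window held one. The element was first described in promoters of this kind, so its presence is background and not a finding of these libraries. *Herpud1* held an ERSE-II, and *Dnajb11* held another just downstream of its start. An ERSE-II was also present in 1 of the 96 other ER genes, and in 9 of the 9582 genes tested that had a window. A core XBP1 site, searched as TGACGTGG or TGACGTGA, was present in *Hspa5* and *Txndc5*. That is 6.25% of members with a window, the same share as among the other ER genes (6.25%), beside 1.88% of genes tested. No element of the members overlapped another.

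Most of the response genes were higher in N275D cells, by small amounts. Of the 39 members, 25 rose and 1 fell, and 13 did not pass the test (limma on log2(normalized reads + 1), Benjamini-Hochberg adjusted p under 0.05 over 11908 genes with a mean of at least 10 normalized reads). Over all genes tested, 50.9% passed in either direction, 24.7% as higher and 26.1% as lower. The median log2 fold change of the members was 0.18, with a range from -0.10 to 1.18, beside a median of -0.0026 over all genes tested. Where a gene is said to rise or fall by a number, that number is its log2 fold change. In 26 members every N275D library lay above every WT library, an order seen in 28.1% of all genes tested. In 2 members every N275D library lay below, as in 3528 of the 11908 genes tested. A single member, *Derl3*, changed by at least 2-fold, and 3.59% of all genes did so. The smallest two-sided p an exact permutation of the 6 libraries allows for any gene was 0.1, so calls rest on the spread that limma estimates across genes. In bulk RNA, fewer cells of a type and less RNA per cell cannot be told apart.

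**Figure D1:**
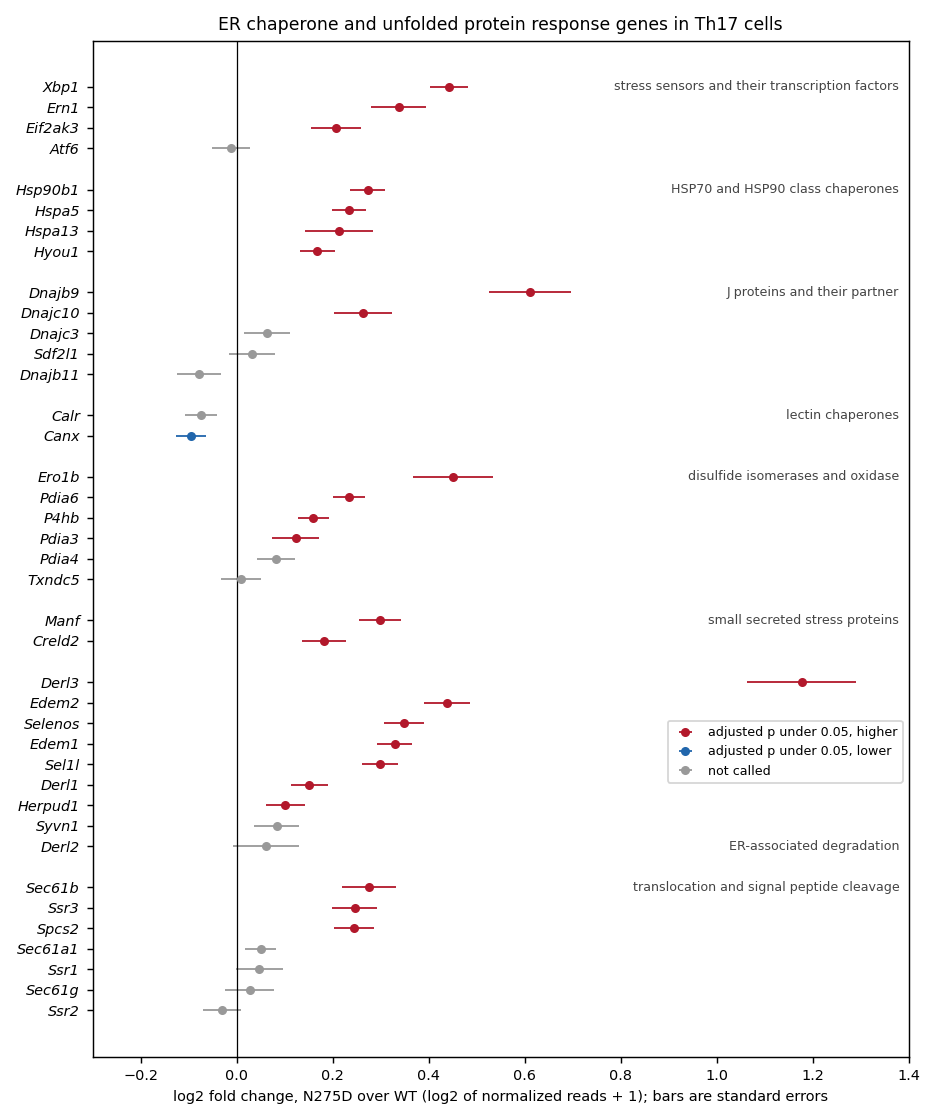
Log2 fold change of each of the 39 members, N275D over WT, with its standard error, grouped by role and coloured by call. *Derl3* stands apart at 1.18, the other called increases lie between 0.10 and 0.61, and the lectin chaperones *Calr* and *Canx* lie below 0.

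The libraries held between 17659035 and 18510878 reads on genes. Cd3 genes, *Cd4*, *Il17a* and *Il17f* were abundant in every library, as the Th17 label requires. WT replicate 3 differed most from its group: it was the lowest WT library in 21 of 39 members and the highest in 13, and its median distance from the other WT libraries over the members was 0.09 on the log2 scale, compared with 0.05 and 0.06 for WT replicates 2 and 1. Without that library, 26 members rose and 2, *Canx* and *Dnajb11*, fell.

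Of the 3 sensors and *Xbp1*, 3 genes rose and *Atf6* did not pass. *Xbp1* (chr11:5520641-5525993), which encodes the transcription factor of that arm, gave 1990, 1985 and 1979 normalized reads in the WT libraries and 2773, 2631 and 2694 in the N275D libraries. The WT libraries lay close together and every N275D library was well above them. Its log2 fold change was 0.44 ± 0.04 (SE), 1.36 times the WT mean (adjusted p = 1.66e-07, limma).

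*Ern1*, which encodes the IRE1α sensor itself, gave 671, 696 and 735 normalized reads in WT and 872, 850 and 935 in N275D. All N275D libraries were higher, with a log2 fold change of 0.34 ± 0.06 (adjusted p = 0.000122, limma). *Eif2ak3*, which encodes PERK, gave 1169, 1169 and 1047 in WT and 1323, 1324 and 1257 in N275D, a log2 fold change of 0.21 ± 0.05 (adjusted p = 0.0037, limma). *Atf6* was the exception among the sensors. Its libraries gave 2373, 2495 and 2359 normalized reads in WT and 2381, 2422 and 2365 in N275D, which overlap, with a log2 fold change of -0.01 ± 0.04 (adjusted p = 0.833, limma).

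All 4 chaperones of the HSP70 and HSP90 classes rose. *Hspa5*, which encodes BiP, the central ER HSP70 and the protein that holds the sensors inactive, gave 28667, 29315 and 27010 normalized reads in WT and 32704, 33563 and 33678 in N275D. Its lowest N275D library exceeded its highest WT library by more than the range of either genotype, and the log2 fold change was 0.23 ± 0.04 (adjusted p = 4.09e-05, limma). *Hsp90b1*, which encodes GRP94, the HSP90 of the ER and a folding factor for integrins and Toll-like receptors, gave 20787, 21122 and 19354 in WT and 24281, 25235 and 24478 in N275D. This was the largest log2 fold change of the group, 0.27 ± 0.04 (adjusted p = 1.37e-05, limma). *Hspa13*, an ER and microsome-associated HSP70, rose by 0.21, with 1 N275D library, replicate 3, well above the other 2 (755 normalized reads compared with 631 and 639). Its call was lost without that library (adjusted p = 0.146, limma) and without WT replicate 2 (adjusted p = 0.0532, limma). *Hyou1*, an exchange factor for BiP, rose by 0.17.

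The J proteins, which bring substrates to BiP and set off its ATPase, did not move together. *Dnajb9*, which encodes ERdj4, a textbook target of spliced XBP1 and a partner of BiP in repressing IRE1, gave 238, 216 and 202 normalized reads in WT and 335, 363 and 306 in N275D. The groups were clearly separated, and its log2 fold change of 0.61 ± 0.09 (adjusted p = 2.04e-05, limma) was the second largest of all members. *Dnajc10*, which encodes the ER reductase ERdj5, rose by 0.26 ± 0.06. The remaining 3 genes of the group did not pass. *Dnajb11*, which encodes ERdj3, gave 2874, 2911 and 2731 in WT and 2690, 2834 and 2542 in N275D, a log2 fold change of -0.08 ± 0.05 (adjusted p = 0.16, limma). *Dnajc3*, which encodes p58IPK and carries an ERSE, gave 2110, 2179 and 1940 in WT and 2238, 2139 and 2127 in N275D, with a log2 fold change of 0.06 ± 0.05 (adjusted p = 0.279, limma). Both of these genes overlapped between the genotypes. *Sdf2l1*, which partners ERdj3, had a log2 fold change of 0.03.

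The lectin chaperones, which hold newly made glycoproteins through their sugars, went the other way. *Canx*, which encodes the membrane-bound calnexin, gave 13799, 13700 and 13344 normalized reads in WT and 12553, 12812 and 12870 in N275D. All N275D libraries were lower, and it was the one member that fell, by 0.10 ± 0.03 on the log2 scale (adjusted p = 0.021, limma). That call was lost without WT replicate 1 or 2, without N275D replicate 1 or 2, and under 3 other settings. *Calr*, which encodes calreticulin, its soluble counterpart, gave 21455, 20933 and 22020 in WT and 20666, 20710 and 19805 in N275D. It too was lower in every N275D library, but its log2 fold change of -0.07 ± 0.03 did not pass (adjusted p = 0.0757, limma). Both promoters hold an ERSE.

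**Figure D2:**
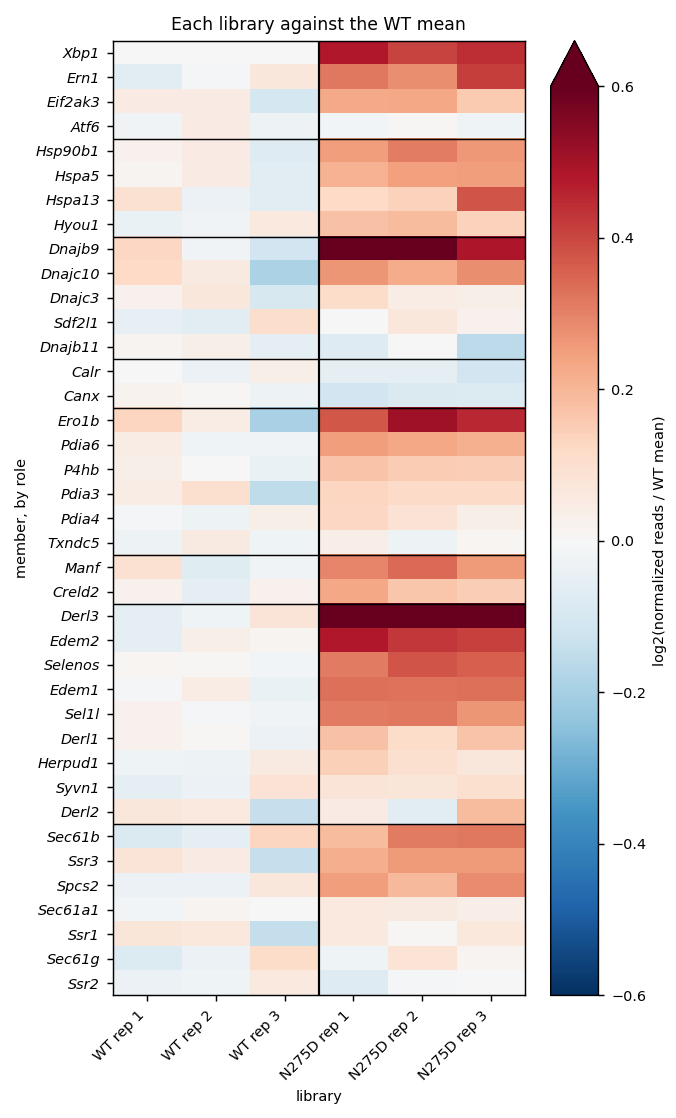
Colour shows log2 of each library's normalized reads over the WT mean, with members in rows by role and the 6 libraries in columns; values above 0.6 share the darkest colour. The N275D columns are red for most members and pale or blue for *Atf6*, *Dnajb11*, *Calr* and *Canx*, and the WT replicate 3 column is the least even of the WT columns.

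Of the enzymes that form and rearrange disulfide bonds, 4 of 6 rose and the other 2 did not pass. *Ero1b*, which encodes an oxidase that passes electrons from protein disulfide isomerases to oxygen, had the lowest level per kb of exon and changed most: 294, 276 and 235 normalized reads in WT and 347, 382 and 367 in N275D. The groups did not overlap, and the log2 fold change was 0.45 ± 0.08 (adjusted p = 0.000326, limma). *Pdia6*, an isomerase that also binds BiP, gave 9330, 8876 and 8914 in WT and 10770, 10631 and 10492 in N275D. Every N275D library was higher, with a log2 fold change of 0.23 ± 0.03 (adjusted p = 3.05e-05, limma). *P4hb*, which encodes the archetypal isomerase PDI, rose by 0.16. *Pdia3*, which encodes ERp57, the isomerase that works with calnexin and calreticulin, rose by 0.12, but its low WT value came from WT replicate 3 (9502 compared with 10908 and 11279) and the call was lost without that library (adjusted p = 0.150, limma), as it was without any 1 of the N275D libraries. *Pdia4* had a log2 fold change of 0.08 and *Txndc5* of 0.01, and neither passed.

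*Manf* and *Creld2*, small ER proteins that are retained or secreted under stress, both rose. *Manf* gave 4330, 3866 and 4012 normalized reads in WT and 4993, 5152 and 4852 in N275D, and *Creld2* gave 1451, 1375 and 1453 in WT and 1675, 1600 and 1578 in N275D. Neither gene overlapped between genotypes. The log2 fold changes were 0.30 ± 0.04 for *Manf* (adjusted p = 3.36e-05, limma) and 0.18 ± 0.05 for *Creld2* (adjusted p = 0.00335, limma).

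ERAD gave the largest increase, and 7 of its 9 members rose. *Derl3* (chr10:75893398-75895941), a derlin of the channel that moves substrates out of the ER and a gene best known from secretory cells, gave 57.5, 58.5 and 62.9 normalized reads in WT and 146, 128 and 134 in N275D. Each N275D library was at more than 2 times any WT library, with a log2 fold change of 1.18 ± 0.11 (adjusted p = 4.26e-07, limma). Its sister genes moved less: *Derl1* rose by 0.15, and *Derl2* had a log2 fold change of 0.06 with overlapping libraries. Per kb of exon, the WT level was 910 normalized reads for *Derl1*, 110 for *Derl2* and 29.9 for *Derl3*. Before division by length, the WT means were 3028, 886 and 59.6.

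Of the ERAD members besides the derlins, 5 rose and *Syvn1* did not pass. *Edem2* and *Edem1*, which take part in the mannose trimming that marks a glycoprotein for disposal, rose by 0.44 and 0.33. *Selenos*, a selenoprotein that links the derlins to the ATPase p97, rose by 0.35. *Sel1l*, the scaffold of the main ubiquitin ligase of the pathway, rose by 0.30. *Syvn1*, which encodes that ligase, HRD1, did not pass: its libraries gave 1494, 1512 and 1649 in WT and 1638, 1630 and 1661 in N275D, with a log2 fold change of 0.08 ± 0.05 (adjusted p = 0.148, limma). WT replicate 3 alone reached the N275D range, and without it *Syvn1* passed (adjusted p = 0.00805, limma). *Herpud1*, a stress-induced partner of the ligase, gave 2989, 2986 and 3165 in WT and 3359, 3254 and 3191 in N275D. Its increase of 0.10 ± 0.04 lay close to the threshold (adjusted p = 0.0445, limma) and was lost in 9 of 16 other settings, among them the removal of any 1 library other than WT replicate 3.

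Of the genes for entry into the ER, 3 of 7 rose and the other 4 did not pass. *Sec61b*, which encodes the β subunit of the translocation channel, gave 1572, 1607 and 1824 normalized reads in WT and 1900, 2069 and 2078 in N275D, a log2 fold change of 0.28 ± 0.06 (adjusted p = 0.0007, limma). The N275D libraries were all higher, but the gap to WT replicate 3 was small. The other channel subunits did not follow it: *Sec61a1*, the pore itself, had a log2 fold change of 0.05 and *Sec61g* of 0.03. *Ssr3*, a subunit of the translocon-associated protein complex, rose by 0.25, whereas *Ssr1* of the same complex had a log2 fold change of 0.05. *Ssr2*, also of that complex, gave 4355, 4389 and 4639 in WT and 4226, 4421 and 4451 in N275D, which overlap, with a log2 fold change of -0.03 ± 0.04 (adjusted p = 0.532, limma). *Spcs2*, a subunit of the signal peptidase, rose by 0.25.

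The ERSE was found among members with and without an increase. Of the members with a promoter window, it was present in 6 of 21 that rose, in 3 of 10 that did not pass and in *Canx*, which fell. Carriers of the element ranged from *Derl3* at a log2 fold change of 1.18 to *Canx* at -0.10. *Xbp1*, *Dnajb9* and *Edem2*, which rose by 0.44 or more, had windows without it. A match of letters is not evidence of binding, and the absence of a match says only that these letters are not in the window searched.

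**Figure D3:**
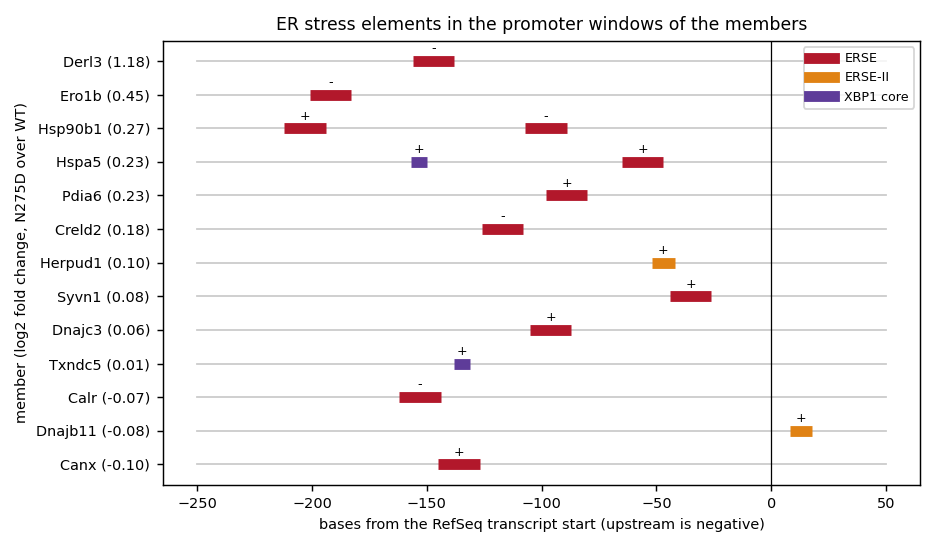
Position of each element relative to the RefSeq transcript start, in bases, for the 13 members with a match, ordered from the highest log2 fold change (in brackets after the name) to the lowest; plus and minus signs give the strand relative to the gene. Apart from the ERSE-II of *Dnajb11*, all elements lie upstream of the start, and ERSE carriers are spread from 1.18 to -0.10.

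Per kilobase of exon, the levels spanned from chaperones among the strongly expressed genes to a derlin near the bottom. The length counts every annotated exon of a gene, whether or not these cells use it, so levels compare only roughly between genes. In WT libraries *Calr* had the highest level, 7455 normalized reads per kb of exon, followed by *Hspa5* at 6699, *P4hb* at 5892 and *Hsp90b1* at 5065. In N275D libraries *Hspa5* was highest at 7878 per kb and *Calr* was at 7081, so these 2 genes changed places on this scale only. Before division by length, *Hspa5* was above *Calr* in both genotypes, with means of 28331 and 21470 in WT and 33315 and 20394 in N275D. *Derl3* was the lowest in WT at 29.9 per kb and reached 68.3 per kb in N275D, above *Ero1b*, which went from 40.3 to 55.0 per kb. *Xbp1* and *Atf6* stood at 611 and 261 per kb in WT.

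The members also took a larger part of the libraries in N275D cells. The 39 genes took 1.14% ± 0.025 (SD, n = 3) of the normalized reads of the WT libraries and 1.29% ± 0.0044 of those of the N275D libraries, 1.13 times as much. HSP70 and HSP90 class chaperones went from 0.316% ± 0.011 to 0.381% ± 0.0052, and ERAD genes from 0.0972% ± 0.00070 to 0.117% ± 0.00098. Lectin chaperones went from 0.194% ± 0.0020 to 0.187% ± 0.0022. These shares are given as a description and were not tested.

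**Figure D4:**
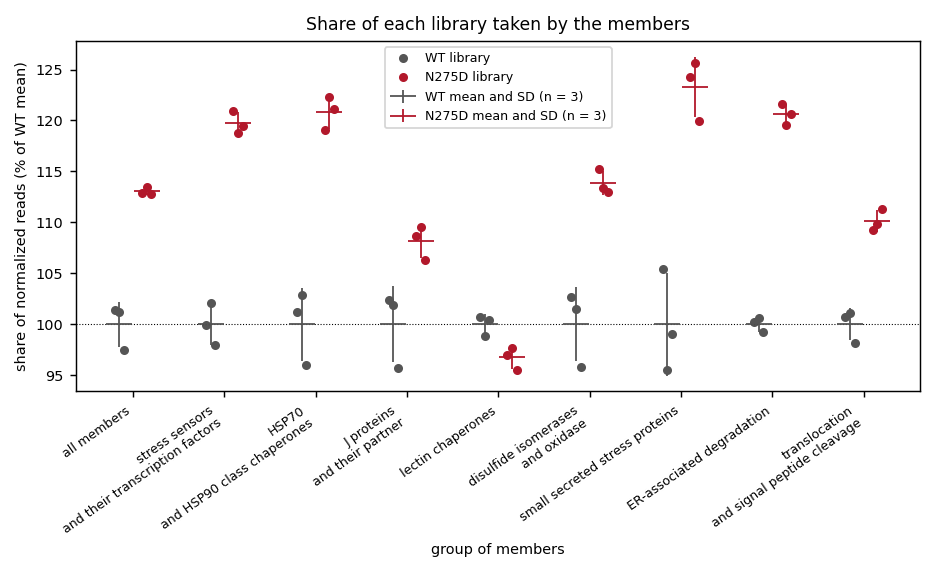
Share of each library's normalized reads taken by all members and by each role, as a percentage of the WT mean share, with single libraries as points and the mean and SD (n = 3) as bars. Every role except the lectin chaperones lies above 100% in all 3 N275D libraries; the vertical axis does not start at 0.

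The rest of the pathway was read from 7 lists of genes linked to the ER or its stress response, of which 118 were tested. They are called other ER genes here, although not all of their products lie in the ER. In all, 42 of the 118 rose and 14 fell, and the median was 0.04 on the log2 fold change scale. Over all genes tested, 24.7% were called higher and 26.1% lower, and the counts of each list below stand beside those shares. The lists were chosen with earlier results of these libraries known, and their counts are a description. The PERK and ATF4 arm had the highest median, 0.42, with 9 of 15 genes higher and none lower. The 6 that did not pass were *Ppp1r15b*, *Eif2s1*, *Sesn2*, *Vegfa*, *Bbc3* and *Cebpb*. Their log2 fold changes ran from -0.08 for *Vegfa* to 0.10 for *Bbc3*. *Atf3*, a stress transcription factor, was its largest increase, from 238, 304 and 318 normalized reads in WT to 660, 678 and 617 in N275D, a log2 fold change of 1.19 ± 0.09 (adjusted p = 2.3e-08, limma). *Trib3*, a pseudokinase that restrains AKT and ATF4, rose by 0.92, *Chac1*, which degrades glutathione, by 0.82, and *Ddit3*, which encodes the death-linked factor CHOP, by 0.71. *Asns*, the asparagine synthetase, rose by 0.63 and *Ppp1r15a*, which encodes GADD34, the phosphatase subunit that restores translation, by 0.42. *Atf4* itself rose by 0.17. The list is named after the arm, and whether PERK acted on these genes was not tested.

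Of the tested genes for ATF6 processing and its relatives, 2 of 11 rose and 3 fell (median 0.03). *Creb3l2*, a related ER-membrane transcription factor, rose by 0.87, from 343, 362 and 377 normalized reads in WT to 671, 674 and 636 in N275D. *Nfya* and *Nfyc*, which encode subunits of the factor that binds the CCAAT part of the ERSE, fell by 0.23 and 0.21 on the log2 scale, and *Nfyb* had a log2 fold change of -0.04 that did not pass. *Atf6b*, the relative of *Atf6*, fell by 0.18. The proteases that cleave ATF6 did not pass, with log2 fold changes of 0.02 (*Mbtps1*) and 0.03 (*Mbtps2*).

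Other disulfide and redox genes rose in 9 of 15 tested, with a median of 0.23 and none lower. *Ero1a*, the oxidase related to *Ero1b* and a gene also induced by hypoxia, went from 6194, 5991 and 5244 normalized reads in WT to 9679, 9427 and 9837 in N275D, a log2 fold change of 0.74 ± 0.05 (adjusted p = 6e-09, limma). Like *Ero1b*, it was higher in all 3 N275D libraries. Other luminal chaperones and cofactors rose in 8 of 17 and fell in 2 (median 0.15). *Nucb2*, a calcium-binding protein of the secretory pathway, was the largest increase at 0.61, and the largest decrease, of 0.33, was in *Hspbp1*, which is better known as a cofactor of cytosolic HSP70.

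The remaining 3 lists had medians close to 0. Of 24 other ERAD genes, 7 rose and 3 fell (median 0.02), from *Erlec1*, an ER lectin, at 0.57 to *Aup1*, a ligase adaptor on lipid droplets, which fell by 0.33. Of 18 genes for N-glycosylation and glycan-dependent folding, 3 rose and 6 fell (median -0.0022). *Ostc*, a subunit of the oligosaccharyltransferase, rose by 0.33. *Mogs*, the glucosidase that makes the first cut on the transferred glycan, fell by 0.40, from 3844, 3743 and 4028 normalized reads to 2927, 2952 and 2891. Of 18 other translocation genes, 4 rose and none fell (median -0.0032), the largest increase being *Serp1*, a translocon-associated stress protein, at 0.34.

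**Figure D5:**
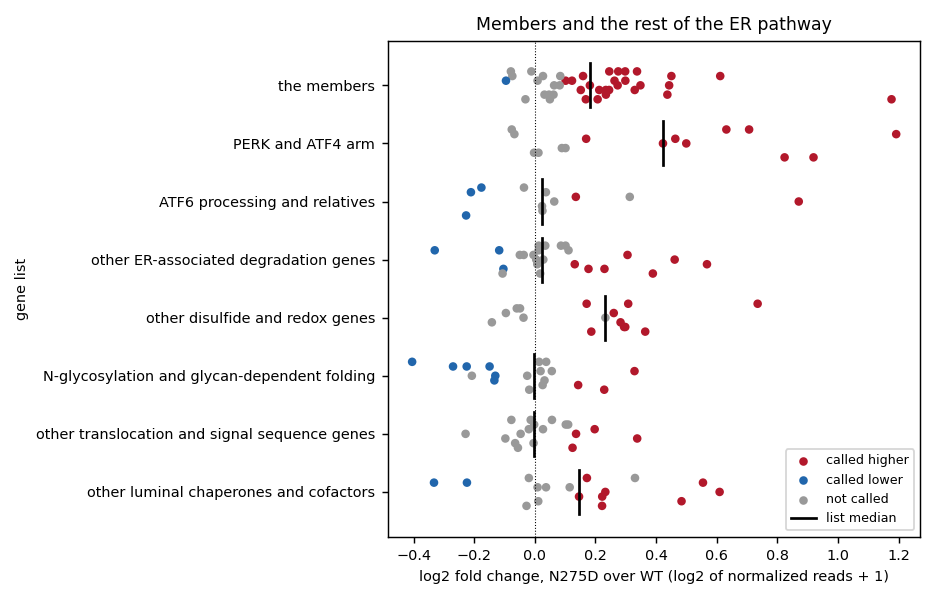
Log2 fold change, N275D over WT, of every tested gene among the 39 members and the 7 other ER lists, coloured by call, with the list median as a black bar. The PERK and ATF4 arm has the highest median (0.42), and 6 of the 18 points for N-glycosylation are blue.

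Sums of B cell, myeloid and CD8 T or natural killer markers were higher in N275D. Single markers within the lists did not all move together. B cell markers other than *Ebf1* summed to between 188 and 195 normalized reads in WT and between 281 and 348 in N275D, and 6 of 8 tested B cell markers rose. With *Ebf1* the sums ran from 1155 to 1191 and from 1762 to 1819. The plasma cell list summed to between 1561 and 1697 in WT and between 1218 and 1288 in N275D, most of it *Pou2af1*, which fell by 1.08, and *Sdc1*, both of which T cells also express. Without them the list summed to between 16.1 and 27.5 in WT and between 45.9 and 60.2 in N275D. That remainder was mostly *Mzb1*, an ER co-chaperone of antibody-secreting cells, whose log2 fold change was 1.35. *Jchain*, which joins secreted antibody chains, had at most 4.01 normalized reads in any library, and *Ms4a1*, which encodes CD20, at most 9.88. Sums for myeloid and dendritic cells were between 120 and 130 in WT and between 148 and 181 in N275D. Of 4 tested markers of that list 2 rose, while *Adgre1* fell by 1.70 and *Cd68* did not pass. Those for CD8 T and natural killer cells were between 231 and 263 in WT and between 335 and 373 in N275D. Of 4 tested markers there 3 rose, while *Cd8a* had a log2 fold change of -0.22 and did not pass. T cell markers summed to between 17120 and 17711 in WT and between 15971 and 16154 in N275D. They did not move together: *Cd4* fell from a mean of 9143 to 7591 normalized reads, and *Cd3e* fell by 0.22. *Cd28* rose by 0.15, and *Cd3d* and *Cd3g* did not pass. The part of other cells in these results was not tested.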

How the data were processed

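Values came from 3 WT and 3 RORγt N275D libraries, assigned to genotype from their labels. Per the study's methods, trimmed reads were mapped by STAR on mm10 and assigned to genes with featureCounts; the strand setting is not given in the sources used here. The methods describe strand-specific DNBSEQ libraries, and the labels a poly-A selected, directional NEBNext kit. The deposited signal values are the authors' gene counts scaled by a single number in each library, and 100% of them were whole multiples of that number within 1e-06. The authors' deposited group averages (score), log2 fold changes and q-values were not used. All columns holding a library's values were used.

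Genotypes were compared with limma (version 3.58.1, R 4.3.3) on log2(normalized reads + 1) and a trend in the prior variance, keeping genes whose mean reached 10, and p-values were adjusted over all 11908. Reads on genes numbered 17659035 to 18510878 per library. Precision was set by the spread between libraries, which limma estimates in part across genes. The script was tested on simulated data. All members are named. One gene outside the members, and a marker sum that holds it, are not reported here. Values per library are given for the sensors, the largest increase and decrease of each role, members past 0.5 on the log2 scale, and those whose promoter is shown. From each other list, the called gene with the largest increase and that with the largest decrease are named; further names were chosen after their values were seen. The members and lists were chosen with earlier results of these data known. Alternatives were other pseudocounts, filters, TMM and quantile scaling, eBayes without a trend, the replicate block, each library left out, and edgeR (4.0.16) and DESeq2 (1.42.0) on recovered reads. Promoters and coordinates are RefSeq's on GRCm38.p6. Exon lengths are the union of all annotated exons of a gene in GENCODE M21.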

Additional observations from a re-analysis of the deposited data

How the results depend on the processing

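The number of members called lay between 22 and 28 over 16 other settings, and 22 of the 26 called members kept their call and direction in all settings that tested them; *Canx*, *Herpud1*, *Hspa13* and *Pdia3* did not. With a replicate block, 24 members were called, all higher, and *Canx* and *Herpud1* lost their calls; the replicate numbers did not pair the libraries, with same-number correlations of -0.05, 0.04 and -0.08. The number of lower members was 0 under quantile normalization, eBayes without a trend and the replicate block, and 0 to 2 when 1 library was left out: 0 without WT replicate 1 or 2 or N275D replicate 1 or 2, and 2 without WT replicate 3. Quantile normalization gave a median of 0.22 with 28 members higher, and the median ranged from 0.16 to 0.19 when 1 library was left out. With a minimum mean of 100, *Derl3* was not tested and the number at 2-fold was 0. Under quantile normalization *Atf6* and *Ssr2* became positive, at 0.051 and 0.054, and were not called. Leaving out 1 library reversed the sign of 5 uncalled members: *Atf6* ranged from -0.026 to 0.014, *Derl2* ranged from -0.0055 to 0.12, *Sec61g* ranged from -0.013 to 0.083, *Ssr1* ranged from -0.023 to 0.084, *Txndc5* ranged from -0.0075 to 0.036.

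The cause of these shifts was not tested. Of the 4 members that lost a call under some setting, 3 had log2 fold changes of 0.12 or less in size, so calls of that size are the least firm with 3 libraries a genotype. Whether reads from processed pseudogenes or antisense transcripts entered the totals cannot be told from gene counts.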
